A study of Rattus norvegicus with 8 samples.

Results

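Reactive astrocyte and acute-phase genes were followed in rat hippocampal slice cultures, which are thin explants of brain kept alive in a dish. The 10 genes were Gfap, Vim and Nes, which encode intermediate filament proteins, Cd44, Osmr and S1pr3, which encode surface receptors, and Lcn2, Serpina3n, Timp1 and Cp, which encode secreted or blood-type acute-phase proteins. Members were the probe sets of the array whose only annotated gene symbol was on this list. These were 12 of 31099 probe sets and covered 9 of the 10 genes. Osmr had 0 such probe sets and has no value here. Each of the 8 arrays held total RNA from 15 dissected cultures at 7 days. The groups were CA1 control (3 arrays), CA3 control (3 arrays), CA1 lesion (1 array) and CA3 lesion (1 array) (CA1 and CA3 are fields of the hippocampus, each built around a layer of pyramidal neurons). The kind of lesion, the event from which days were counted, the strain, the age and the sex are not given in the labels, so the lesion groups can be described only as labelled. Nothing in the labels says that the arrays came from separate animals or preparations, and the p-values below then measure only the spread between these arrays, which may be technical.

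Astrocytes respond to injury and to inflammatory signals by enlarging, by building more intermediate filament protein and by secreting acute-phase proteins, a state called reactive astrogliosis. Cytokines of the interleukin 6 family, acting through the receptor subunit gp130 and the transcription factor STAT3, and cytokines from activated microglia are well-known inducers. Several of these genes are not specific to astrocytes. Vim and Timp1 are made by fibroblasts and vessel cells, Nes by neural progenitors and endothelium, Cd44 by many leukocytes, and Lcn2 by neutrophils.

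Lcn2, Cp and Serpina3n varied most among the arrays and are the members on which the account turns, so the sequences at their transcription starts are shown. RefSeq gives 250 bases before and 50 bases after each start on assembly GRCr8, and all 10 genes matched by symbol. Capitals mark matches, on either strand, to the STAT motif TTCNNNGAA, the AP-1 motif TGANTCA or the C/EBP motif TTNNGCAA. The windows are chr3:36081731-36082030 on the minus strand for Lcn2, chr2:104368420-104368719 on the plus strand for Cp and chr6:129088142-129088441 on the plus strand for Serpina3n.
Lcn2: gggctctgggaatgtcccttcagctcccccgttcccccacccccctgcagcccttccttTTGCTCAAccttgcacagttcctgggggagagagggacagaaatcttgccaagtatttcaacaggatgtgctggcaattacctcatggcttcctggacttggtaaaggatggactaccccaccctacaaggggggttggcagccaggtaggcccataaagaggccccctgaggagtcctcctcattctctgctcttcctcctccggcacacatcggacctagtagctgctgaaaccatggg
Cp: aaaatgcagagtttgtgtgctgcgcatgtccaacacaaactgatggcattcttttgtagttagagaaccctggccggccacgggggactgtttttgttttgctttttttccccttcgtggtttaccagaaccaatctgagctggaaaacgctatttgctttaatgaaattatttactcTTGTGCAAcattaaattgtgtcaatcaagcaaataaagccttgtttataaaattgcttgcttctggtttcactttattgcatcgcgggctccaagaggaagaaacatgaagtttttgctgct
Serpina3n: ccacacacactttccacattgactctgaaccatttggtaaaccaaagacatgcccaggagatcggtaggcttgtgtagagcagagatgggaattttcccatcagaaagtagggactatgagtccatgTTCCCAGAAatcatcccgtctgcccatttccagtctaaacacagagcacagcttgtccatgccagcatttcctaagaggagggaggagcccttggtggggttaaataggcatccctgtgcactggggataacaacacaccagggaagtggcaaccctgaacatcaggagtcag
Lcn2 and Cp each held a C/EBP match and were the only members of the 10 that did, against 10.6% of all 33469 rat windows. Serpina3n held the only STAT match among the members, and 8.87% of all windows held that motif. An AP-1 match was found in 7.33% of all windows and, among the members, in Osmr alone. These matches describe letters in a short window and are not evidence that a factor bound there.

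Values are given as log2(intensity + 16), in the order of controls 1, 2 and 3 followed by the lesion array of the same field. Lcn2 encodes lipocalin 2, a secreted protein that binds bacterial iron carriers and is a standard marker of reactive astrocytes. In CA1 its values were 9.54, 8.04 and 14.45 in the controls and 14.15 in the lesion array. In CA3 they were 6.86, 10.38 and 14.65 in the controls and 14.23 in the lesion array. Both lesion arrays and both control 3 arrays were thus high, the other 4 controls were low, and the lesion array lay within the range of the controls in each field. The CA1 lesion array exceeded control 1 by 24.3-fold and control 2 by 69.0-fold but lay 1.24-fold below control 3. The CA3 lesion array exceeded control 1 by 165-fold and control 2 by 14.4-fold and lay 1.34-fold below control 3. The spread among controls was as large, since control 3 exceeded control 1 by 30.1-fold in CA1 and 221-fold in CA3. The intensity of Lcn2 was 100.5 in CA3 control 1 and 247 in CA1 control 2, below those arrays' medians of 658 and 815. Whether these dim values lie above background is unknown, so folds against them are not exact.

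Cp encodes ceruloplasmin, a copper-binding ferroxidase that astrocytes carry on their surface and the liver secretes as an acute-phase protein. Its brightest probe set read 13.24, 14.16 and 15.69 in the CA1 controls and 16.04 in the CA1 lesion array. The CA3 controls read 13.44, 14.46 and 15.73 and the CA3 lesion array 16.19. Control 1 was lowest, control 3 was the highest control, and each lesion array lay above all 3 controls of its field. The margin over control 3 was small, at 1.27-fold in CA1 and 1.38-fold in CA3, against 6.96-fold and 6.72-fold over control 1. Both other Cp probe sets gave the same order of the controls in both fields. Their lesion arrays stood within 0.04 log2 units of control 3 in 3 of the 4 comparisons, and 0.22 above it in CA1 for the dimmest probe set.

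Serpina3n encodes a secreted serine protease inhibitor of the antichymotrypsin type that is strongly induced in reactive astrocytes. Unlike Lcn2 and Cp, it was highest in control 1. CA1 values were 12.88, 7.75 and 10.14 in the controls and 9.74 in the lesion array. CA3 values were 12.82, 8.99 and 9.76 in the controls and 8.15 in the lesion array. The margin of control 1 was 6.70-fold over control 3 in CA1 and 8.35-fold in CA3. The CA1 lesion array lay among its controls, 8.82-fold below control 1 and 3.98-fold above control 2, whereas the CA3 lesion array lay below all of its controls. Serpina3n intensities were 199 in CA1 control 2, 492 in CA3 control 2 and 267 in the CA3 lesion array. Those arrays had medians of 815, 576 and 738. Whether these dim values lie above background is unknown, so comparisons with them are not exact. So the 3 genes with the widest spread did not share an order of arrays.

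**Figure D1:**
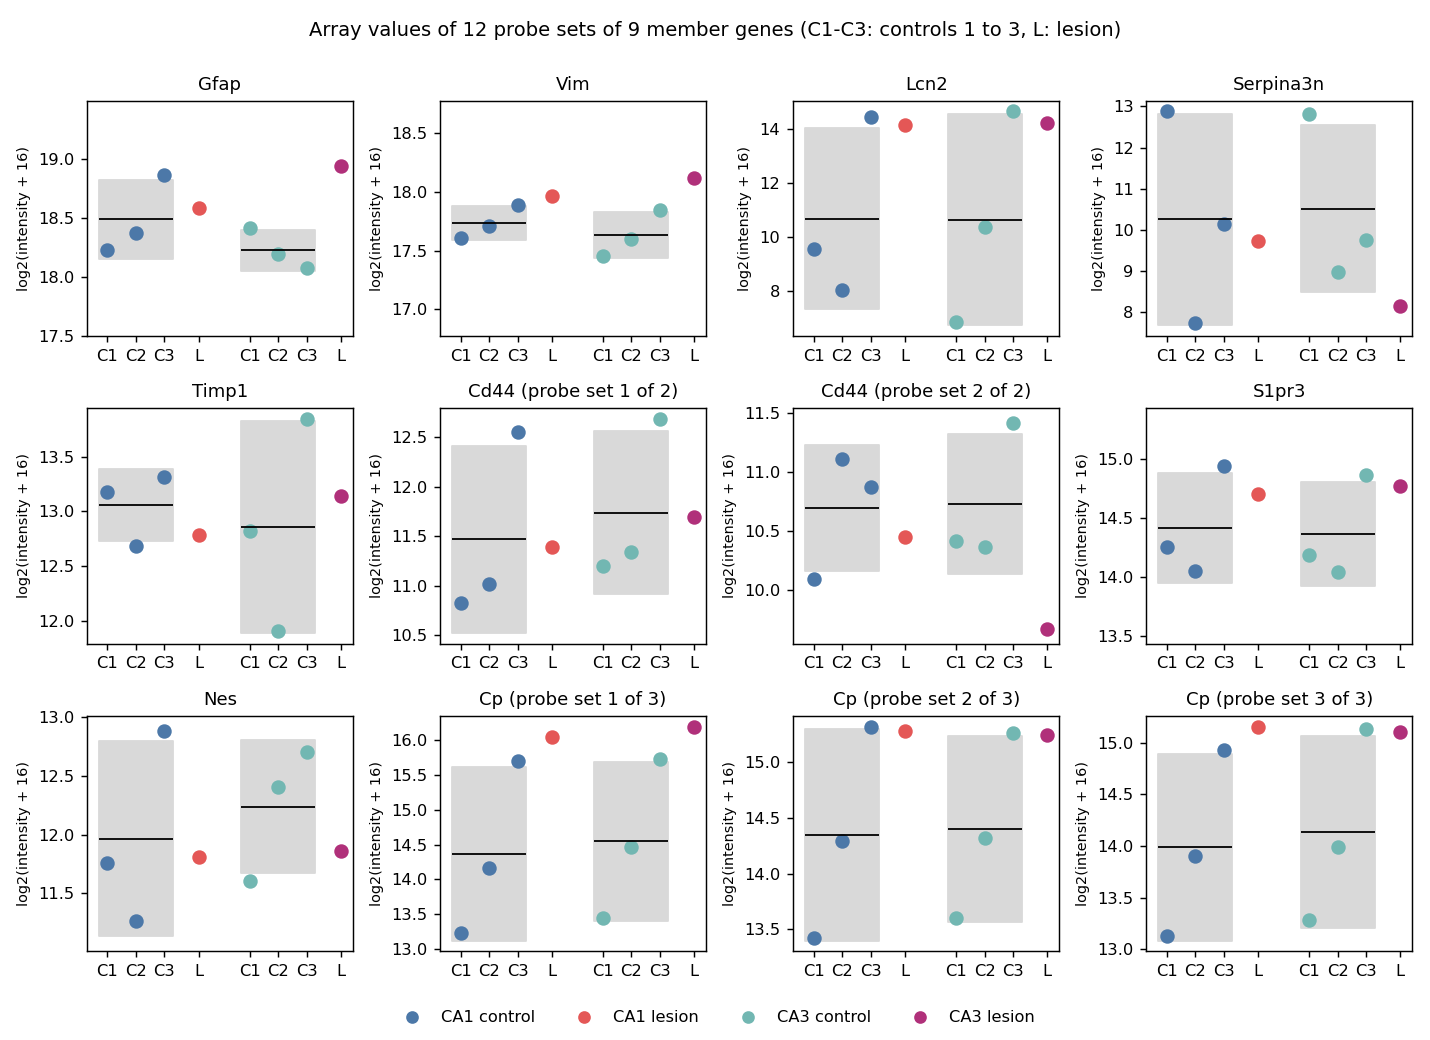
Each panel plots the 8 array values of 1 probe set on a log2 axis, with black lines and grey bands for the mean and SD of the 3 controls of a field. The axes differ between panels, with a span of at least 2 log2 units. Lcn2 and Cp are high in control 3 and in the lesion array of each field, and Serpina3n is high in control 1.

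Timp1 encodes a secreted inhibitor of matrix metalloproteinases. Its values were 13.17, 12.69, 13.31 and, in the lesion array, 12.78 in CA1, and 12.82, 11.91, 13.84 and 13.14 in CA3. Control 2 was lowest and control 3 highest in each field, and the lesion array lay between its controls in both. Timp1 in the CA3 lesion array exceeded control 2 by 2.35-fold and lay 1.63-fold below control 3.

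The intermediate filament genes moved over narrower ranges. Gfap, the filament protein that defines astrocytes, read 18.23, 18.37, 18.87 and 18.58 in CA1 and 18.41, 18.19, 18.07 and 18.94 in CA3. The CA1 lesion array lay between controls 2 and 3, and the CA3 lesion array lay above all 3 of its controls, by 1.45-fold to 1.83-fold, but after quantile normalisation it lay between them. Control 3 was the highest control for Gfap in CA1 and the lowest in CA3, unlike for Cp. Vim, which encodes vimentin, read 17.61, 17.71, 17.89 and 17.97 in CA1 and 17.45, 17.60, 17.84 and 18.11 in CA3. Its lesion array lay above all controls in each field, by 1.05-fold over control 3 in CA1 and 1.21-fold in CA3, but in CA3 it lay below control 3 after quantile normalisation. Gfap and Vim lay at the 99.98th and 99.94th percentile of brightness. There quantile normalisation assigns a few values shared by rank, and Gfap read 18.35 in both the CA1 lesion array and CA3 control 3. Quantile-normalised values of these 2 genes therefore cannot decide whether they differed. Nes, which encodes nestin, read 11.76, 11.26, 12.88 and 11.81 in CA1 and 11.61, 12.41, 12.70 and 11.86 in CA3. For Nes both lesion arrays lay between their controls, and control 3 was again the highest control.

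Among the receptors, S1pr3, which binds sphingosine 1-phosphate, read 14.26, 14.05, 14.94 and 14.70 in CA1 and 14.18, 14.05, 14.87 and 14.77 in CA3. Its lesion arrays lay above controls 1 and 2 and below control 3 in both fields. Cd44, the hyaluronan receptor, had values of 10.83, 11.02, 12.56 and 11.39 in CA1 and 11.19, 11.34, 12.69 and 11.69 in CA3 by its brighter probe set. As for S1pr3, the lesion arrays lay above controls 1 and 2 and below control 3, with control 3 exceeding the lesion array by 2.24-fold in CA1 and 1.99-fold in CA3. The other Cd44 probe set disagreed, with 10.09, 11.11, 10.87 and 10.45 in CA1 and 10.41, 10.36, 11.41 and 9.67 in CA3, where the lesion array was the lowest. Both Cd44 probe sets are of the kind that can match several transcripts of a gene, and which transcripts each measures is not given in the sources used here.

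**Figure D2:**
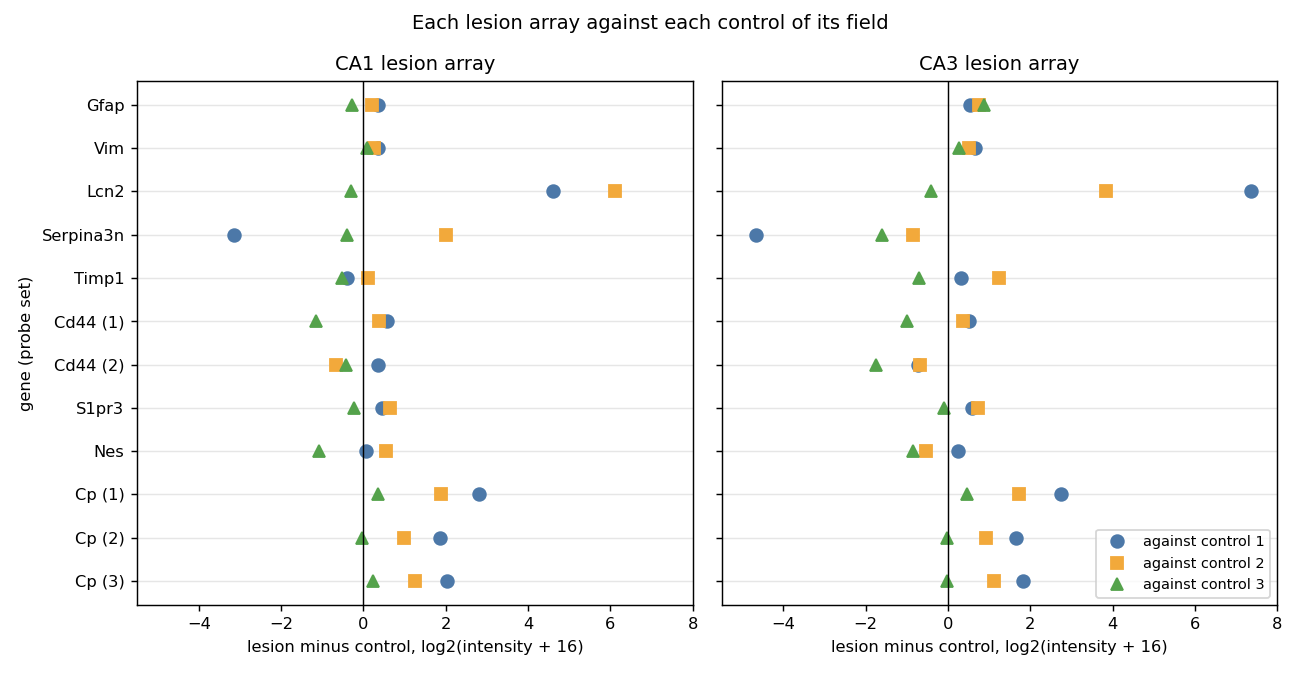
Each point is the lesion array minus 1 control of its field in log2 units, for 12 probe sets in CA1 (left) and CA3 (right). For Lcn2 the points against controls 1 and 2 lie at 3.85 to 7.36 and the points against control 3 at -0.31 and -0.42.

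Counted over the 12 probe sets, the same arrays stood out. Control 3 lay above controls 1 and 2 in both fields for 9 probe sets, of Vim, Lcn2, Timp1, Cd44 (1 of 2), S1pr3, Nes and Cp (3 of 3), while 17.1% of all 18625 probe sets tested did so. After quantile normalisation 8 did, Vim dropping out, with 17% of all. Control 3 exceeded control 1 by at least 2-fold in both fields for 6, of Lcn2, Cd44 (1 of 2), Nes and Cp (3 of 3), against 3.53% of all. The reverse held among the members for Serpina3n alone, against 1.54% of all. Both lesion arrays exceeded controls 1 and 2 of their field for 8 probe sets, against 17% of all. These were of Gfap, Vim, Lcn2, Cd44 (1 of 2), S1pr3 and Cp (3 of 3). After quantile normalisation 7 did, Gfap dropping out, with 16.1% of all. The lesion arrays both exceeded all 3 controls for Vim and the brightest Cp probe set, 2 of 12, against 7.98% of all. After quantile normalisation Cp alone among the members did, with 7.7% of all. Both lesion arrays lay below all 3 controls for 0 of 12, against 8.03% of all. Both lesion arrays exceeded control 1 by 2-fold or more for 4, Lcn2 and the 3 Cp probe sets, against 3.45% of all, and lay as far below it for Serpina3n, against 1.46%. They stayed within 2-fold of control 3 for 8 of 12, of Gfap, Vim, Lcn2, Timp1, S1pr3 and Cp (3 of 3), a share below the 77.7% of all probe sets that did. The probe sets of a gene measure the same RNA, so these counts are not of independent items.

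The first formal comparison asked whether the genes differed between CA3 and CA1 in control cultures. In limma, 0 of the 12 probe sets passed an adjusted p of 0.05 and 0 had an unadjusted p under 0.05, while 0.526% and 8.31% of all probe sets tested did. The 3 controls of a field lay wholly above or below those of the other for 0 of the 12 and for 14.9% of all. Gfap had means of 18.49 ± 0.34 in CA1 and 18.22 ± 0.17 in CA3 (SD, n = 3 arrays each), a difference of -0.27 ± 0.20 (SE, limma adjusted p = 0.758) that was 0.11 after quantile normalisation. S1pr3 had means of 14.42 ± 0.47 and 14.37 ± 0.44 (SD, n = 3 each) and differed by -0.05, with a 95% interval from -0.65 to 0.55. For Lcn2 the means were 10.68 ± 3.36 and 10.63 ± 3.90 (SD, n = 3 each). The interval of the difference ran from -4.22 to 4.12, so that this fit could not detect a large difference in either direction. This fit took no account of the control number, and SEs from a fit that did are given in the last section. The Cp interval ran from -1.21 to 1.57 and that of Serpina3n from -2.46 to 2.99. Over the 9 genes with their brightest probe sets, 4 were higher and 5 lower in CA3, with a median difference of -0.05, and the median of all probe sets was -0.04.

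The second comparison asked how the lesion arrays differed from controls. In the mean lesion effect over both fields, 0 of the 12 probe sets passed in limma, and 0% of all probe sets did. At an unadjusted p under 0.05 there was 1 member, the brightest probe set of Cp, and 6.41% of all. Lcn2 was 11.6-fold higher by this mean (3.53 ± 1.88 on the log2 scale, SE, from 2 lesion and 6 control arrays, with a limma adjusted p = 0.798). Cp was 3.16-fold higher (1.66 ± 0.63, limma adjusted p = 0.771), and its other probe sets differed by 1.07 and 0.89. Serpina3n was 2.72-fold lower (-1.45 ± 1.22, limma adjusted p = 0.844), and its value was -0.21 without control 1 of both fields. Gfap was 1.33-fold higher (0.41 ± 0.20, limma adjusted p = 0.780), but the value was -0.08 after quantile normalisation, which limits differences between the brightest probe sets. Vim differed by 0.36 ± 0.16 and S1pr3 by 0.35 ± 0.27. The remaining values were 0.01 for Timp1, -0.27 for Nes and -0.06 and -0.65 for the Cd44 probe sets. The median over the 9 genes was 0.35, with 6 higher and 3 lower, and the median of all probe sets was 0.02, with 52.2% of them higher.

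**Figure D3:**
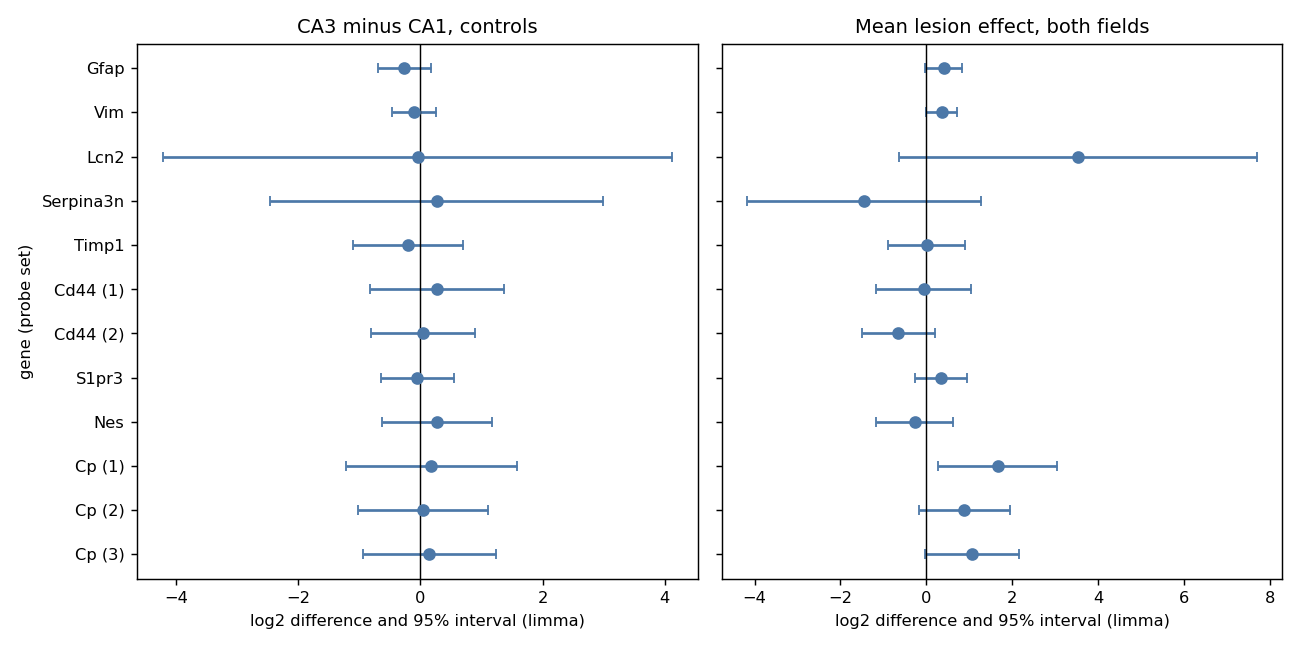
Points are log2 differences from limma and bars their 95% intervals, for CA3 minus CA1 in the controls (left) and for the mean lesion effect over both fields (right). The interval of the brightest Cp probe set on the right, from 0.27 to 3.05, excludes 0 before adjustment.

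The number of members called for the mean lesion effect was also counted with controls left out. Control 3 was the highest control for Lcn2 and Cp in both fields, so its omission by itself raises their lesion effect. The calls without control 3 are therefore no separate support for a lesion effect. Leaving control 2 out of both fields was not run. Without control 3 of both fields, 3 member probe sets passed in limma, those of Lcn2 (5.48, adjusted p = 0.0154) and of Cp (2 of 3, the brightest at 2.29, adjusted p = 0.0122), while 0.891% of all probe sets passed. Without control 3 of a single field, 0 members passed, against 0% of all probe sets without that of CA1 and 0.00537% without that of CA3. Without control 1 of both fields 0 members and 0% of all passed, and the mean lesion effect was 2.31 for Lcn2 and 1.10 for Cp. The labels number both lesion arrays 1, as they do control 1 of each field, and do not say what the numbers mean. With a block for these numbers the count of members called for the lesion effects changed, as given in the last section.

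In the single fields, 0 members passed for CA1, for CA3 or for the difference of the lesion effects in limma, and 0% of all probe sets did. At an unadjusted p under 0.05 there were 0 members in CA1 (3.63% of all probe sets), 1 in CA3, Gfap (4.68% of all), and 0 for the difference (3.09% of all). Gfap had a lesion effect of 0.09 ± 0.28 in CA1 and 0.72 ± 0.28 in CA3 (SE, limma), and the difference of these effects was 0.62 ± 0.39 (limma adjusted p = 1.00). Lcn2 and Cp had similar estimates in the fields, 3.47 and 3.60 for Lcn2 and 1.67 and 1.65 for Cp, with SEs of 2.65 and 0.89. For Serpina3n they were -0.51 and -2.38, with an SE of 1.73. A lone lesion array has no spread of its own and was taken to vary like the controls. The CA1 lesion array lay above all 3 controls for 3 probe sets (21.2% of all did so) and the CA3 lesion array for 3 (29.7% of all).

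Other genes of the reactive state were described as gene lists. Of 26 further reactive astrocyte genes 20 were tested, and 0 passed in either direction for the mean lesion effect or for CA3 against CA1. Their median lesion effect was 0.57, with 13 higher and 7 lower. Tnc, a matrix glycoprotein, differed by -0.96 ± 0.23 (SE) and S100a10, a calcium-binding protein partner of annexin, by -0.83 ± 0.25, while the proteoglycan serglycin (Srgn) differed by 1.92 ± 0.59 and the growth factor binding protein Igfbp5 by 0.71 ± 0.27. C3, the central complement component and a marker of a neurotoxic astrocyte state in mice, had intensities of 566, 1948 and 19388 in the CA1 controls and 13492 in the CA1 lesion array. In CA3 its intensities were 359, 1137 and 13903 in the controls and 13130 in the lesion array. As for Lcn2, both control 3 arrays lay above the lesion arrays and the other controls far below.

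The acute-phase plasma protein list held 8 tested genes of 19, and 0 passed. Their median lesion effect was 0.79, with 6 higher and 2 lower, and 2 of the 8, C3 and Serping1, are also in the reactive list. A2m, the protease inhibitor alpha-2-macroglobulin, differed by 1.03 ± 0.31 (SE) and Clu, the chaperone clusterin, by 0.82 ± 0.30, Apoe by 0.47 ± 0.18 and Itih3 by 0.77 ± 0.33. In A2m both lesion arrays lay above all their controls, at intensities of 123694 against 42985 to 90670 in CA1 and 133527 against 48509 to 102291 in CA3. Of 16 genes of gp130 and STAT3 signalling 10 were tested, 0 passed and the median was 0.08, with 8 higher and 2 lower. Cebpd, a C/EBP transcription factor, had the smallest p of that list at 0.91 ± 0.37 (SE, limma adjusted p = 0.771), followed by the kinase gene Jak2 (0.36), Cebpb (0.68) and the cytokine gene Cntf (-0.17). The cytokine genes Osm, Lif and Il6 fell below the intensity filter and were not tested.

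Markers of cell types were described over the same arrays, and their lists differed in direction. The 11 tested of 14 microglia and macrophage markers summed to intensities of 7136, 17633 and 102387 in the CA1 controls and 147636 in the CA1 lesion array. In CA3 the sums were 7380, 13197 and 86083 in the controls and 106003 in the lesion array. The sums were thus high in the arrays in which Lcn2 and Cp were high. All 11 markers had a higher mean in the lesion arrays (median 2.50), with 0 passing in limma. Cx3cr1, tested among them, lacked that order, at intensities of 104, 891, 689 and, in the lesion array, 480 in CA1. Its CA3 intensities were 520, 177, 104 and, in the lesion array, 422. Of the defining markers, Itgam, Ptprc and P2ry12 fell below the intensity filter. Unlike Cx3cr1, each was highest in control 3 and the lesion array of both fields, though dim. Itgam read 51.7, 67.0, 1034 and, in the lesion array, 467 in CA1, and 60.1, 43.1, 708 and 254 in CA3. The 12 tested of 14 homeostatic astrocyte markers summed to 641777, 664798 and 880520 in the CA1 controls and 880752 in the CA1 lesion array. Their CA3 sums were 520572, 672629 and 776699 in the controls and 859456 in the lesion array. These sums too were highest in control 3 and the lesion array of each field, by smaller margins than for microglia. Of these markers 9 were higher in the mean lesion effect (median 0.20), with 0 passing. The 9 neuron markers tested summed to 194333 to 396821 in the controls and 184773 and 269017 in the lesion arrays, and all 9 were lower (median -0.34), with 0 passing for the lesion and 1, Nefl, for CA3 against CA1 (higher in CA3). In RNA from whole tissue, fewer cells of a type and less RNA per cell cannot be told apart.

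Of 10 fibroblast and meningeal markers, all tested, 1 passed for CA3 against CA1, Ptgds (higher in CA3), and 0 for the lesion, where the median was 0.09. Their sums were 19515 to 25325 in the CA1 controls, 42303 to 50496 in the CA3 controls and 19428 and 46602 in the lesion arrays. Only 4 of 10 endothelial and mural markers and 1 of 7 neutrophil markers, S100a9, were bright enough to be tested, and 0 passed in either comparison. The 4 endothelial and mural markers had a median lesion effect of 0.14. S100a9 had intensities of 289 to 439 in the controls, 357 in CA1 lesion and 759 in CA3 lesion. Another 3 neutrophil markers had probe sets below the filter. Csf3r, the receptor of a granulocyte growth factor, read 28.6, 35.2, 111 and, in the lesion array, 150.4 in CA1, and 31.3, 14.1, 323 and 573 in CA3. It was thus highest in control 3 and the lesion array of each field, as Lcn2 was, but dim. S100a8 read 20.6 to 725 in the controls and 73.3 and 69.1 in the lesion arrays, and Camp 13.5 to 111 and 51.4 and 52.6. The 5 tested neural progenitor and ependymal markers had a median lesion effect of 0.24, and 0 passed. The part of these cells in the values of the member genes was not tested. The ratio of 3' to 5' signal of Gapdh, which rises as RNA degrades, was 3.71 to 5.0 in the controls, 4.65 in CA1 lesion and 5.23 in CA3 lesion, where Gfap and Vim were at their highest. That of Actb was 14.5 to 22.2 in the controls, 17.3 in CA1 lesion and 19.8 in CA3 lesion, so the lesion arrays lay among the controls. The part of these ratios in the values was not tested either.

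**Figure D4:**
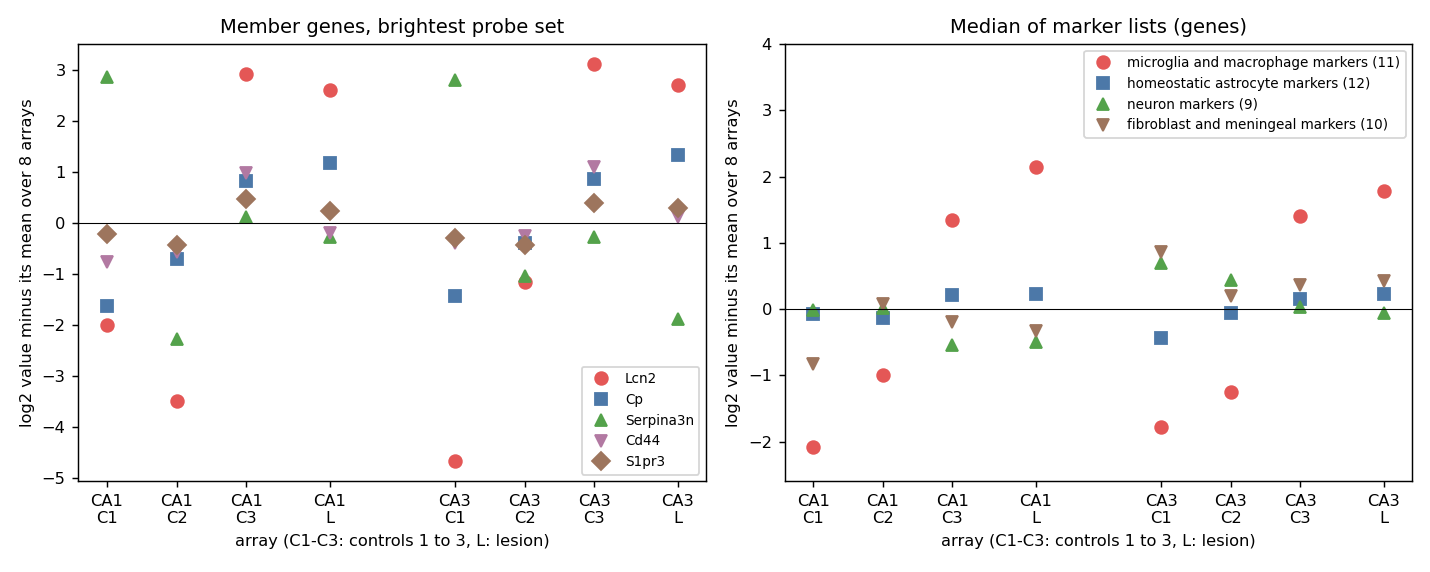
Left, log2 values of 5 member genes minus their mean over the 8 arrays. Right, the median of the same quantity over 4 marker lists, with the number of genes in brackets. Microglia and macrophage markers are high in control 3 and in the lesion array of both fields, at 1.34 and 2.14 in CA1 and 1.40 and 1.78 in CA3. Homeostatic astrocyte markers are highest in the same arrays, at 0.21 and 0.23 in CA1 and 0.16 and 0.22 in CA3.

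The genes most like Gfap, Timp1 and Serpina3n over the 8 arrays were sought by the root mean square difference of log2 values centred on their means. For Gfap, whose own spread was 0.30 by that measure, these were Col16a1 (0.11), Itm2b (0.12) and Pnrc2 (0.13). For Timp1, with a spread of 0.53, they were Cdr2 (0.19), Ccn1 (0.21) and Prelp (0.24). Serpina3n had a spread of 1.80 and no close match over the 8 arrays, the nearest being Urm1 (0.97), Flywch1 (0.99) and Rexo1 (1.01). As the choice by likeness made likely, these 3 genes were above their means in both control 1 arrays. Urm1 was so by 1.77 in CA1 and 1.64 in CA3. Serpina3n lay above its mean there by 2.86 and 2.79.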

How the data were processed

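Per the labels, total RNA of 8 pools of cultures was measured, 1 array per pool. The deposited values are linear signal intensities, 1 per probe set and array, and the 2% trimmed mean of every array was close to 2501, so they were taken as scaled by the authors. No source used here names the software, the probe summary or the genome build, and detection calls were not used. The number of arrays limits the precision.

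Intensities were converted to log2(value + 16), so fold changes understate those of dim probe sets. From 31099 probe sets 57 controls were removed, and those under the 40th percentile of mean log2 value were left out, which kept 18625, with all 12 member probe sets. The platform annotation gave 1 symbol for 20832 probe sets, several for 436 and none for 9831. In the lists a gene was represented by its brightest probe set. Group means were fitted over all 8 arrays in limma 3.58.1 (R 4.3.3), with an intensity trend and 4 residual degrees of freedom, and p-values were adjusted by Benjamini-Hochberg over all 18625. All members are named, as are up to 4 genes per pathway list by p. Values of C3, A2m and the neutrophil markers by array were chosen after they were seen. The members, the lists and the count rules were chosen with earlier results of these data known.

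Other settings tried were quantile normalisation between arrays, a pseudocount of 1 or 64, dropping the filter or raising it to the 60th percentile, a constant prior variance, leaving out probe sets with IDs ending in _x_at or _s_at, a block for the replicate number, and omission of single arrays, of control 1 or of control 3 in both fields.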

Additional observations from a re-analysis of the deposited data

How the results depend on the processing

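The count of member probe sets past the threshold was 0 for CA3 against CA1, and 0 for the difference of the lesion effects, under every alternative run. For the lesion effects it was 0 with each single array left out and under the other alternatives but these. It was 5 with the replicate block for the mean, the CA1 and the CA3 lesion effect (Lcn2, Cp and, lower, Serpina3n; 3.74%, 1.39% and 1.66% of all probe sets passed), and 3 for the mean alone without control 3 of both fields. With the replicate block the mean lesion effect was 5.98 for Lcn2, 2.77 for Cp and -3.91 for Serpina3n. Both lesion arrays carry the number 1, so this fit sets them against its estimate for that number. For CA3 against CA1 the block left the differences unchanged, with SEs of 0.65 for Lcn2, 0.12 for Cp and 0.40 for Serpina3n. The SEs of the main fit were 1.88, 0.63 and 1.22. The deviations of same-numbered CA1 and CA3 controls correlated at 0.16, 0.06 and 0.31 over probe sets, each array best with its own number, but the labels do not say that numbers mark a shared preparation and control 2 missed the 0.1 set for pairing. Some values changed sign, not all of them by small amounts. For CA3 against CA1 under quantile normalisation these were Gfap (0.11), Vim (0.12) and Lcn2 (0.0191), with a pseudocount of 64 Lcn2 (0.0257), without control 1 of both fields Lcn2 (1.27) and without control 3 of both Gfap (0.000092). With single arrays left out, that difference ran from -2.06 to 1.84 for Lcn2, -0.99 to 1.58 for Serpina3n, -0.69 to 0.27 for Timp1, -0.20 to 0.82 for Cd44, -0.30 to 0.21 for S1pr3, -0.0794 to 0.73 for Nes and -0.41 to 0.85 for Cp. For the mean lesion effect, quantile normalisation turned Gfap (-0.0754) and Timp1 (-0.0014), the replicate block turned Timp1 (-0.0326), Cd44 (0.53) and Nes (0.15), and omission of control 3 of both fields turned Cd44 (0.45) and Nes (0.0755). With single arrays left out it ran from -0.27 to 0.28 for Timp1 and -0.22 to 0.21 for Cd44. The cause was not tested. Without detection calls, which dim values lie above background is unknown.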
